A study of Mus musculus with 4 samples.

Results

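The genes of Wnt signalling at the cell surface, with the main proteins that carry its signal inward, were followed in mouse white adipose tissue after a high fat diet. The members were chosen by symbol from the array's own probe names: Wnt ligands, R-spondins, Frizzled receptors, the co-receptors Lrp5, Lrp6, Ror1 and Ror2, the secreted antagonists Sfrp, Frzb, Dkk and Wif1, the Wisp proteins, and Axin1, Axin2, Ctnnb1, Lef1, Tcf7 and Tcf7l2. They were 56 of 27616 distinct gene names on the array, represented by 85 probes, and each name is counted below as a gene. Female C57BL/6 mice, an inbred strain with no other allele or agent named in the labels, began at 8 weeks of age either a high fat diet (HFD, High Fat Diet 32) or a standard low fat diet (LFD, CE2). Each diet was fed for 18 weeks to model obesity. Each sample was adipose tissue mixed from 3 mice, with no fat depot named, and 2 samples per diet were hybridised to 1-colour arrays. Nothing in the sources used here says whether the 2 samples of a diet came from separate pools, so a p-value here speaks only of how far these samples lie from each other, a spread that may be technical.

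Wnt proteins are secreted lipid-modified ligands. In the canonical pathway they bind a Frizzled receptor together with Lrp5 or Lrp6, which halts the destruction of beta-catenin and lets it act with factors of the Tcf and Lef family. Other Wnt proteins act through Ror receptors and Frizzled without beta-catenin. In fat, canonical Wnt signalling is known to hold preadipocytes back from becoming adipocytes, and Sfrp5 is known as a secreted protein of adipocytes that binds Wnt ligands.

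The values below are log2 signals relative to the 75th percentile of the same array, so that 0 is a probe at that percentile and 1 unit is a doubling. All 10 adipocyte markers, Adipoq and Plin1 among them, were well above background on all 4 arrays. Their differences between the diets were negative for 7 and positive for 3, with a median of -0.21. Retn alone was called, lower in HFD. The greatest difference among them was that of Lep, at 2.18 (SE 0.525, limma adjusted p = 0.0728). Lep gave 2.81 and 4.32 in LFD and 5.72 and 5.76 in HFD. The array of HFD replicate 2 had the fewest probes well above background, 21314 of 41174, against 26421 to 27940 on the others. In bulk tissue, fewer cells of a type and less RNA per cell cannot be told apart. Macrophage markers summed to 167.3 and 185.7 times the percentile signal in LFD and to 295.3 and 304.1 in HFD, with 8 of 10 called higher, and mesothelium markers summed to 42.83 and 44.98 in LFD and to 11.56 and 14.86 in HFD. Of 7 tested epithelial markers Krt5, Cdh1 and Trp63 fell, the other 4 had positive differences that were not called, and the list's median was 0.19. Their sum was 2.609 and 2.906 in LFD, where Krt5 was the brightest of them, and 0.934 and 1.035 in HFD, where Krt17 was. Of 13 fibroblast and preadipocyte markers 3 were lower, Dlk1, Pdgfra and Dpp4, while the sum was 443.4 and 501.5 in LFD and 444.4 and 461.5 in HFD. The part of these cell types in the results below was not tested, except where a measurement is given.

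Results for 7 members turned on the 9 probes whose first 30 of 60 bases are printed here. The set holds every tested probe of the 5 members called by their brightest probe, and both probes of Wnt6 and Ror2, whose probes disagreed. Letters are lower case throughout because no part of a probe is singled out.
Rspo1: ccgtggtacacgtcacggatgacctgactt
Dkk3: gaatgaaatttgcaaagtcgcttagcaaca
Wnt9a: aaacgtctgccggctggtttgtttctgtat
Fzd3: tccgaattaaattgctgaggtaactaaatt
Axin2: ttctactttagactgtaaattatgcattat
Wnt6, brighter probe: attcccctgaaaggccctttgctagttctg
Wnt6, dimmer probe: ttcctcagaattactgggatggatgggtga
Ror2, brighter probe: ctcagttcatccccatgaagggtcagatca
Ror2, dimmer probe: gaccaacccttgagcatgatcttcagctac

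In the mouse build mm9, as the files give them, the probes lie at chr4:124686270-124686329 (Rspo1, plus strand), chr7:119260828-119260887 (Dkk3, minus strand), chr11:59146696-59146755 (Wnt9a, plus strand), chr14:65811641-65811700 (Fzd3, minus strand) and chr11:108811980-108812039 (Axin2, plus strand). The Wnt6 probes sit next to each other at chr1:74831361-74831426 and chr1:74831461-74831520 on the plus strand. Those of Ror2 lie at chr13:53205969-53206028 and chr13:53206729-53206788 on the minus strand. Whether a probe falls in a coding exon or a UTR was not analysed here, as no annotation of mm9 was used.

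The comparison of HFD with LFD asked which members differed between the diets. Of the 39 members tested, 5 were lower in HFD and none was higher at a threshold of 0.05 on the limma adjusted p. The adjustment was Benjamini-Hochberg over all tested probes. Over all 17739 genes tested, 5.61% were called lower and 5.69% higher, which is 995 and 1009 genes. With each array scaled to its median in place of its 75th percentile, 1362 genes were lower and 853 higher, and 6 members were lower and 0 higher. The 5 members were Rspo1, Dkk3, Wnt9a, Fzd3 and Axin2, 1 each from the R-spondins, the antagonists, the ligands, the Frizzled receptors and the transducers. At an unadjusted p under 0.05, limma had 15 members lower and 6 higher, where 16.8% and 18.1% of all genes were. With normexp background correction 2 members, Sfrp5 and Wisp2, were called higher.

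The median log2 difference of the tested members was -0.34, against 0.02 for all genes tested. Both HFD arrays lay below both LFD arrays for 19 of the 39 members and above them for 9, where over all genes the shares were 32.8% and 36%. Part of this rests on which members could be tested. A probe was tested if it stood well above background on every array of LFD, of HFD or of both, and 10 members passed through LFD alone, 9 of them with a negative difference. Among the 29 members well above background on all 4 arrays the median was -0.10, and 4 were lower and 0 higher with the adjustment unchanged. Refitted on such probes alone, 6 of the 29 were lower and 1 higher. Over all 14796 genes in that fit 1320 were lower and 1592 higher, with a median of 0.03.

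**Figure D1:**
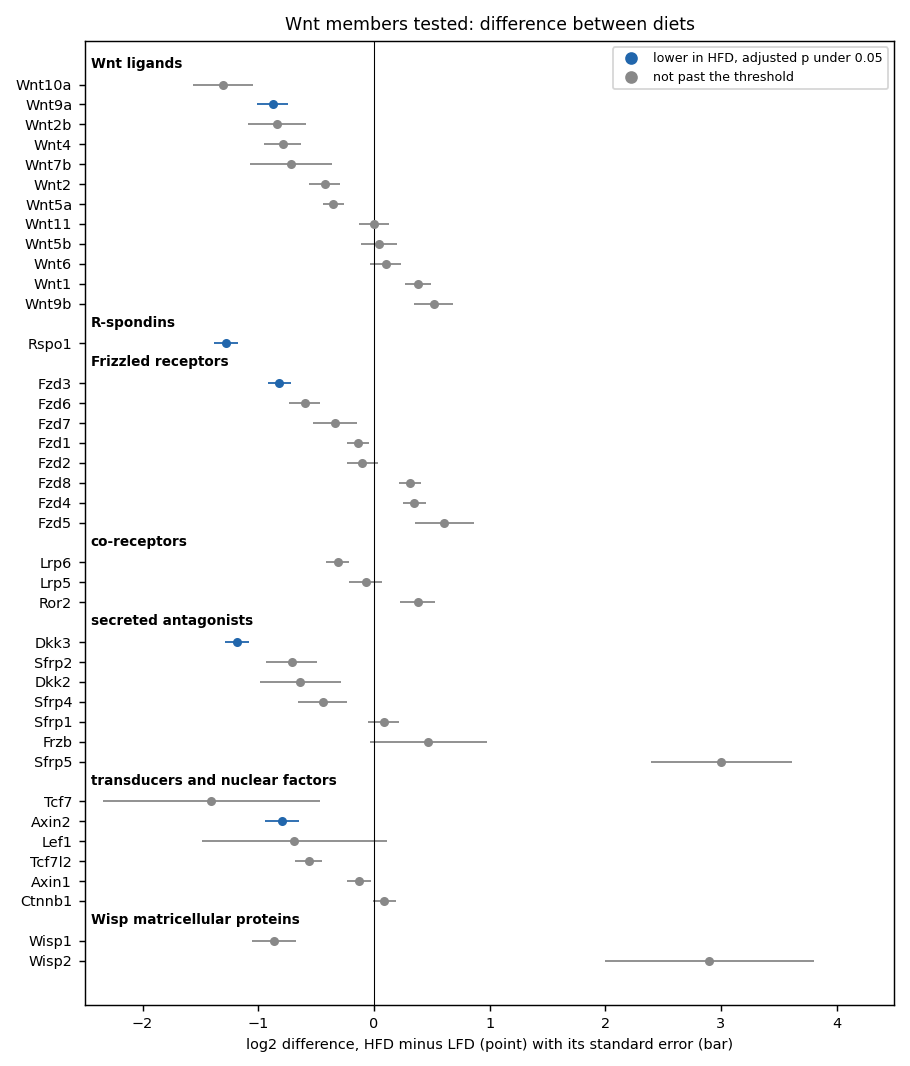
Log2 difference between diets, HFD minus LFD, for the 39 tested members grouped by role; points are fitted differences at each gene's brightest probe, bars their standard errors, and blue marks the 5 members called lower. Sfrp5 at 3.00 and Wisp2 at 2.90 lie far to the right with wide bars and did not pass the threshold.

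Of the 17 members that could not be tested, 13 had no probe well above background on any array. They were the ligands Wnt3, Wnt3a, Wnt8a, Wnt8b and Wnt16, the R-spondins Rspo2, Rspo3 and Rspo4, the antagonists Dkk1 and Dkk4, the receptors Fzd9 and Ror1, and Wisp3. The other 4 were well above background on 1 array only: Wnt10b, a ligand known to block adipogenesis, and Fzd10 on LFD replicate 1, and Wnt7a and Wif1 on HFD replicate 1. Wif1, a secreted protein that binds Wnt ligands, gave -6.49 and -6.51 in LFD and -3.54 and -3.62 in HFD. Its HFD arrays were thus both brighter, but only 1 of them was well above background. Wnt10b gave -4.01 and -4.29 in LFD and -4.24 and -3.95 in HFD, with the diets overlapping.

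Among the ligands, 1 of 12 tested genes was lower and none higher, where 5.61% of all genes were lower and 5.69% higher. Wnt9a, a ligand studied in joint formation and blood stem cell development, had log2 signals of -0.72 and -0.74 in LFD and -1.46 and -1.75 in HFD. Both HFD arrays lay below both LFD arrays. The signal fell 1.84-fold, from -0.73 ± 0.01 (SD, n = 2) to -1.61 ± 0.21 (SD, n = 2), with a log2 difference of -0.88 (SE 0.13, limma adjusted p = 0.0355).

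Wnt4, Wnt5a, Wnt2, Wnt2b, Wnt7b and Wnt10a also had both HFD arrays below both LFD arrays, and Wnt1 and Wnt9b had both above, but none passed the threshold. Wnt4, known from kidney and gonad development, gave -2.34 and -2.70 in LFD and -3.37 and -3.24 in HFD (log2 difference -0.79, limma adjusted p = 0.0551). For Wnt4, Wnt7b and Wnt1 only 1 of 2 HFD arrays was well above background. The Wnt4 difference was -0.35 with normexp, and it was called in 2 of 9 alternatives that kept all 4 arrays and the threshold of 0.05. Wnt5a, the best known ligand of the beta-catenin-independent branch, gave 0.41 and 0.46 in LFD and 0.09 and 0.07 in HFD. Its difference of -0.35 was small and even (SE 0.09, limma adjusted p = 0.0826), and its dimmer probe gave -0.28 with overlapping diets. Wnt10a, known from skin, tooth and fat development, gave -4.46 and -4.13 in LFD and -5.91 and -5.28 in HFD (limma adjusted p = 0.0537). Neither HFD array was well above background for Wnt10a or for Wnt2b, where the signals were -3.92 and -3.24 in LFD and -4.43 and -4.39 in HFD. For Wnt2b, a ligand close to Wnt2 in sequence, the log2 difference was -0.83 (limma adjusted p = 0.1048), or at least 1.15-fold lower in HFD with the dim side placed no lower than the detection floor of each array. No such fold could be given for Wnt10a, whose LFD mean did not exceed the mean floor of the HFD arrays. The Wnt2b difference was -0.04 with normexp (adjusted p = 0.8788), and it was called at -1.04 with quantile normalisation (adjusted p = 0.0453) and at -1.17 without LFD replicate 1 (adjusted p = 0.0476). Later values given as at least a fold are of this kind. Wnt5b, which promotes adipogenesis in cultured cells, had a log2 difference of 0.04 (SE 0.16), which was -0.04 with median scaling, and that of Wnt11 was 0.00 with an SE of 0.13.

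The neighbouring probes of Wnt6, a ligand reported to act against adipogenesis, did not give the same answer. The brighter probe had -2.17 and -1.92 in LFD and -2.02 and -1.87 in HFD, so the diets overlapped (log2 difference 0.10, SE 0.13). The dimmer probe had -3.04 and -3.04 in LFD and -4.72 and -5.06 in HFD, where it was not well above background. That is at least 1.67-fold lower in HFD (limma adjusted p = 0.0164). A call for Wnt6 thus depends on which probe is read.

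Among the 5 called members Rspo1 had the largest difference. R-spondins are secreted proteins that raise the cell's response to Wnt by binding Lgr receptors and clearing the ubiquitin ligases Rnf43 and Znrf3, which otherwise remove Frizzled. Its log2 signal was 4.72 and 4.78 in LFD and 3.55 and 3.40 in HFD. The gap between the diets was many times the SD of either, 0.04 in LFD and 0.10 in HFD (n = 2 each). Rspo1 fell 2.42-fold, with a log2 difference of -1.28 (SE 0.10, limma adjusted p = 0.0164). Of its partners, Lgr5 was at least 1.14-fold lower (limma adjusted p = 0.0477), with no HFD array well above background, and Lgr4 rose 1.48-fold (log2 difference 0.57, SE 0.09, limma adjusted p = 0.0382). Znrf3 had a log2 difference of -0.44 and Rnf43, dim on both HFD arrays, one of -0.47, neither past the threshold.

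Among the antagonists, 1 of 7 tested genes was lower, where 5.61% of all genes were. Dkk3, a member of the Dickkopf family whose role in Wnt signalling is less settled than that of Dkk1, had log2 signals of -1.42 and -1.57 in LFD and -2.68 and -2.67 in HFD. It fell 2.27-fold (log2 difference -1.18, SE 0.10, limma adjusted p = 0.0178), and the HFD arrays differed from each other by far less than from LFD. Dkk2, which is known to block Lrp6 or to act as a weak agonist by context, gave -2.06 and -2.43 in LFD and -2.42 and -3.34 in HFD. Its log2 difference of -0.63 was within about 2 SEs of 0 (SE 0.35), with 1 of 2 HFD arrays well above background.

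All 5 called members, with Rspo1, Dkk3 and Wnt9a among them, were lower in HFD, so they share their direction with any marker list that fell. Both HFD arrays lay below both LFD arrays for 32.8% of all genes. Of 12 mesothelium markers 11 were lower, with a median log2 difference of -1.89. Of 4 tested Schwann cell markers 2 were lower, with a median of -1.02. None of the mesothelium markers was dim on all arrays. Mesothelium is the cell layer that covers visceral fat. The part of either cell type in the falls of the called members was not tested.

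The antagonist with the greatest difference was Sfrp5, a decoy that takes up Wnt ligands outside the cell. The log2 signal was -3.73 and -1.97 in LFD and 0.17 and 0.15 in HFD. Both HFD arrays lay above both LFD arrays, but the LFD arrays differed from each other by more than any other pair of Sfrp replicates here. The log2 difference was 3.00 (SE 0.61), which is 8.02-fold, and did not pass the threshold (limma adjusted p = 0.0554). It passed with normexp (log2 difference 2.13, adjusted p = 0.0073) and with either LFD array left out, at 2.13 without replicate 1 (adjusted p = 0.0426) and 3.88 without replicate 2 (adjusted p = 0.0436). Over 14 alternatives at the threshold of 0.05 the limma adjusted p ran from 0.0073 to 0.1962, and it passed in 4, the other one being a filter for probes well above background on all 4 arrays.

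The other Sfrp genes went both ways, and none passed the threshold. Sfrp2 gave 1.83 and 1.77 in LFD and 1.37 and 0.80 in HFD (log2 difference -0.71, SE 0.22, limma adjusted p = 0.1080), and Sfrp4 gave 2.67 and 2.25 in LFD and 2.20 and 1.84 in HFD (-0.44, SE 0.21). The HFD arrays lay below the LFD arrays for both, by a narrow margin for Sfrp4. Sfrp1 had a log2 difference of 0.08 (SE 0.13) with overlapping diets, and of -0.01 with median scaling. Frzb, also called Sfrp3, gave -2.44 and -3.35 in LFD and -1.86 and -2.99 in HFD. Its log2 difference of 0.47 (SE 0.51) was smaller than the gap between its replicates.

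Wisp2, a matricellular protein of preadipocytes known to respond to Wnt and now named Ccn5, showed the same array pattern as Sfrp5. The log2 signal was -3.17 and -0.56 in LFD and 1.14 and 0.93 in HFD. All 4 values were ordered by diet, and LFD replicate 1 was much lower than LFD replicate 2. The adipocyte marker Lep, also not called, was likewise lowest on LFD replicate 1 and higher on both HFD arrays. The log2 difference of Wisp2 was 2.90 (SE 0.90), or 7.46-fold, with a limma adjusted p of 0.1112. Over 14 alternatives its adjusted p ran from 0.0327 to 0.2971, and it passed in 3, with log2 differences of 2.25 with normexp, 1.60 without LFD replicate 1 and 4.20 without LFD replicate 2. Wisp1, or Ccn4, went the other way, with -2.00 and -2.26 in LFD and -2.79 and -3.20 in HFD (log2 difference -0.86, SE 0.19, limma adjusted p = 0.0620). Only 1 of 2 HFD arrays was well above background for Wisp1. Its difference was -0.36 with normexp, and it was called in 1 of 9 alternatives that kept all 4 arrays.

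**Figure D2:**
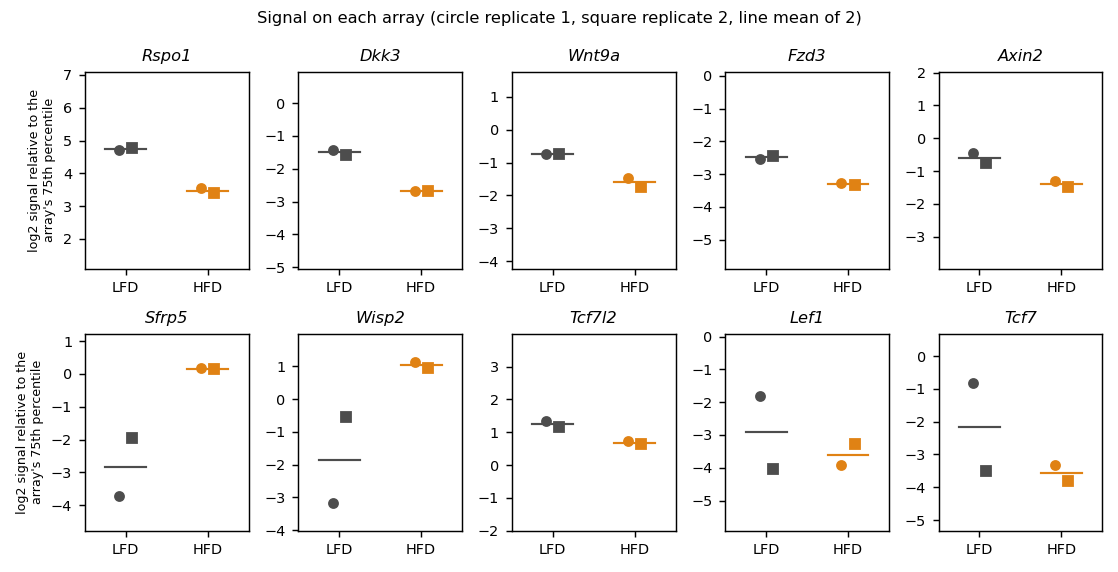
Log2 signal on each of the 4 arrays for 10 members, with 0 at the array's 75th percentile; circles are replicate 1, squares replicate 2, lines the mean of 2, and every vertical axis spans the same 6 log2 units. The 5 called members in the upper row have tight replicates, whereas Sfrp5 and Wisp2 have LFD arrays apart from each other and Lef1 and Tcf7 have 1 high LFD array.

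Among the receptors, Fzd3 was the only one of 8 tested Frizzled genes to pass, where 11.3% of all genes passed in either direction. Fzd3, known for axon guidance and planar cell polarity, had log2 signals of -2.53 and -2.43 in LFD and -3.26 and -3.33 in HFD, a 1.76-fold fall (log2 difference -0.82, SE 0.10, limma adjusted p = 0.0250). HFD replicate 2 was not well above background, and with normexp the difference was -0.33 and not called (adjusted p = 0.0972). Fzd4, which also serves as the receptor for Norrin in blood vessels, gave 3.60 and 3.67 in LFD and 3.95 and 4.03 in HFD. The separation of Fzd4 was small and even (log2 difference 0.35, SE 0.10, limma adjusted p = 0.0921). Fzd6, Fzd5 and Fzd8 had log2 differences of -0.60, 0.61 and 0.32 and did not pass, and Fzd1 had one of -0.14 (SE 0.09). The probes of Fzd7 pointed in opposite directions, at -0.34 and 0.46.

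The co-receptors Lrp5 and Lrp6 had log2 differences of -0.07 (SE 0.14) and -0.31 (SE 0.10, limma adjusted p = 0.1093). Lrp5 had overlapping diets, with 0.86 and 1.11 in LFD and 0.81 and 1.03 in HFD. Lrp6 had -2.57 and -2.60 in LFD and -2.85 and -2.96 in HFD, which do not overlap, while the diets overlapped at its dimmer probe.

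Ror2, a receptor tyrosine kinase that binds Wnt5a, again had probes of different answer. The brighter probe gave -2.00 and -1.68 in LFD and -1.54 and -1.39 in HFD (log2 difference 0.38, SE 0.15, limma adjusted p = 0.1678). The dimmer probe was not well above background in LFD, at -6.75 and -6.31, and well above background in HFD, at -4.09 and -2.64. This was the only member probe called higher in HFD, at least 2.32-fold (limma adjusted p = 0.0404).

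**Figure D3:**
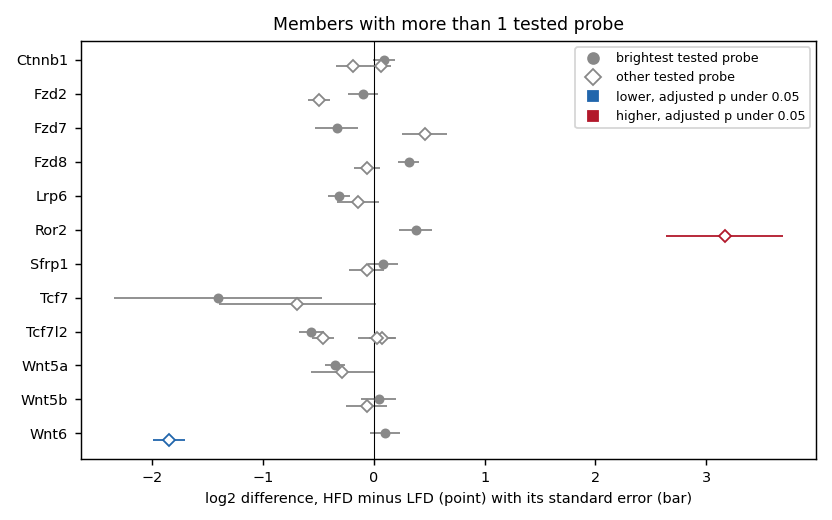
Log2 difference between diets, HFD minus LFD, for each tested probe of the 12 members with more than 1; circles are the brightest probe of a gene, diamonds its other probes, bars standard errors, blue called lower and red called higher. The dimmer probes of Wnt6 and Ror2 stand far from their brighter ones.

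Probes of opposite sign were found in 7 of the 12 members with more than 1 tested probe, where the share among all 5984 such genes was 31%. They were Ctnnb1, Fzd7, Fzd8, Sfrp1, Tcf7l2, Wnt5b and Wnt6, and the values given are those of a gene's brightest tested probe unless said otherwise.

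Of the proteins that carry the signal inward, 1 of 6 tested genes was called, where 11.3% of all genes were called in either direction. Axin2, a scaffold of the complex that destroys beta-catenin and a widely used target gene of canonical Wnt signalling, had log2 signals of -0.47 and -0.75 in LFD and -1.31 and -1.49 in HFD. It fell 1.73-fold (log2 difference -0.79, SE 0.15), close to the threshold (limma adjusted p = 0.0477). Axin1, the constitutive scaffold, had a log2 difference of -0.13 (SE 0.10). Ctnnb1, which encodes beta-catenin, gave 3.16 and 3.29 in LFD and 3.30 and 3.34 in HFD, a log2 difference of 0.09 (SE 0.10), with -0.004 after quantile normalisation.

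Tcf7l2, the Tcf factor most studied in metabolic tissue, gave 1.35 and 1.15 in LFD and 0.72 and 0.65 in HFD at its brightest probe. The difference of -0.56 (SE 0.12) just missed the threshold (limma adjusted p = 0.0565). Its other 3 tested probes gave log2 differences of -0.46, 0.03 and 0.07, and of these the -0.46 probe alone had diets that did not overlap.

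Lef1 and Tcf7, the factors of this family known from lymphocytes, were set apart by 1 array rather than by diet. Lef1 gave -1.81 on LFD replicate 1 and -4.03 on LFD replicate 2, against -3.92 and -3.29 on the HFD arrays. Tcf7 gave -0.83 on LFD replicate 1, -3.50 on LFD replicate 2 and -3.32 and -3.82 on the HFD arrays. The lymphocyte markers, of which 6 were tested and none called (1 at an unadjusted p under 0.05 with limma), also summed highest on LFD replicate 1, to 3.745 times the percentile signal, against 0.9201 on LFD replicate 2 and 0.9397 and 1.568 in HFD. Not every marker followed the sum, as Cd79a and Cd3e were not highest on that array. Most of the sum was Ms4a1, a B cell surface protein, at a log2 signal of 1.22 there and -2.57 to -1.12 on the others. The part of lymphocytes in the Lef1 and Tcf7 values was not tested.

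**Figure D4:**
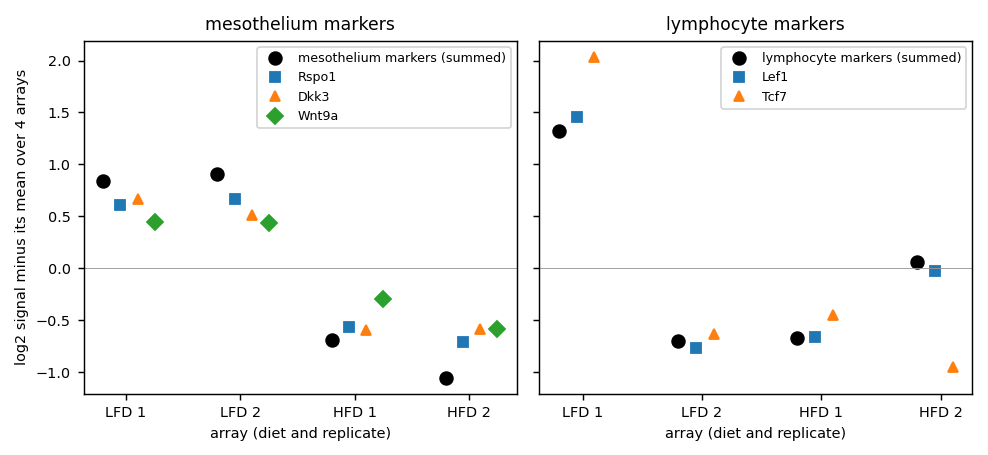
Log2 signal on each array minus its mean over the 4 arrays; on the left the summed mesothelium markers (black) with Rspo1, Dkk3 and Wnt9a, on the right the summed lymphocyte markers (black) with Lef1 and Tcf7. On the left both LFD arrays lie above both HFD arrays for all 4 quantities, an order found in 32.8% of all genes. Rspo1, Dkk3 and Wnt9a were taken from the members called lower, so their order comes with the call. On the right LFD replicate 1 lies above the other 3 arrays.

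Other genes of the pathway were read from lists by role. Of 18 tested receptor-level regulators 3 were lower and 1 higher, where 5.61% and 5.69% of all genes were. Besides Lgr5 and Lgr4, Gpc3, a glypican that binds Wnt and hedgehog ligands, fell 2.22-fold (log2 difference -1.15, SE 0.11, limma adjusted p = 0.0181). Sostdc1, a secreted inhibitor of Wnt and BMP signals, was at least 1.86-fold lower (limma adjusted p = 0.0297). The list's median log2 difference was -0.15. In cytoplasmic transduction the median of 27 genes was -0.02, and 1 was lower and none higher. That gene was Nkd2, an inhibitor that binds Dishevelled (1.95-fold, limma adjusted p = 0.0351), with 1 of 2 HFD arrays well above background, and 6 genes of the list had an unadjusted p under 0.05 with limma, against 34.9% of all genes.

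Among 20 nuclear partners 2 were lower, the beta-catenin cofactor Bcl9 (1.57-fold) and the transcription factor Sox9 (3.09-fold). None was higher, and the median was 0.06, where 5.61% of all genes were lower and 5.69% higher. Sox9 was well above background on 1 of 2 HFD arrays. None of 24 genes of the polarity and calcium branches passed, with a median of -0.06. Only 1 gene, Prickle1, had an unadjusted p under 0.05 with limma, against 34.9% of all genes. None of the 3 tested genes of ligand secretion passed, of which 1, Tmed5, had an unadjusted p under 0.05 with limma (log2 difference 0.58, adjusted p = 0.0504). Wls, the carrier that takes Wnt proteins to the cell surface, had a log2 difference of -0.20 (SE 0.10) and Porcn, which adds their lipid, one of -0.12.

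Common target genes went both ways, with 4 of 18 higher, 3 lower and a median of 0.22. Over all genes 5.69% were called higher and 5.61% lower. Runx2, a bone transcription factor, rose 4.72-fold, the hyaluronan receptor Cd44 2.87-fold, the receptor tyrosine kinase Ephb2 1.88-fold and the adhesion molecule Nrcam 1.84-fold. The receptor Tnfrsf19 fell 6.03-fold with 1 of 2 HFD arrays well above background, Edn1, which encodes the vasoconstrictor endothelin 1, fell 1.66-fold, and the transcription factor Sp5 was at least 1.40-fold lower. The limma adjusted p of these 7 genes lay between 0.0137 and 0.0474. Cd44 is also a gene of macrophages, whose markers were higher in HFD, and its part in this list was not tested. Myc had a log2 difference of 0.04 (SE 0.23) and Ccnd1 one of 0.79 (SE 0.22, adjusted p = 0.0911).

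Upstream sequence was available for 37 members in the RefSeq promoter table of build GRCm38.p6, and the 250 bases before the start were searched on both strands for forms of the Tcf/Lef core, which are CTTTGAA or CTTTGAT and also CTTTGTA or else CTTTGTT. A match was found in 6 members (16.2%) and in 16.8% of all genes with a promoter, and in 0 of the 3 called members in the table, Axin2, Rspo1 and Wnt9a. This says only that these letters are not in this window.

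The 5 calls depended on having 2 HFD arrays. Without HFD replicate 1 the adjusted p was 0.0651 to 0.1312 and without HFD replicate 2 it was 0.0905 to 0.2166, so that none held, while the log2 differences stayed between -1.35 and -0.70. In those settings the calls among all genes went to 2 higher and 0 lower, and to 6 higher and 3 lower. With either LFD array left out, Rspo1 and Dkk3 kept their calls and Wnt9a, Fzd3 and Axin2 lost theirs.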

How the data were processed

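The authors deposited scanner output of 4 Agilent 1-colour arrays, whose spot brightness values are linear intensities. Per the file headers, Feature Extraction 11.0.1.1 (11.5.1.1 per the submitters' processing notes) removed background and detrended every array, and all arrays shared 1 slide and 1 scan. In the value table the authors deposited, each number is a ratio, signal over the array's 75th percentile, with column medians of 0.117, 0.127, 0.130 and 0.131. It is linear, uncentred and in the direction of signal.

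Control spots were dropped, as were 60 to 115 flagged spots on each array. There were 0 saturated spots. Spots of a probe were averaged as log2 signals minus the 75th percentile. Of 41174 probes 27668 were named by transcript accession in a RefSeq table of another build, used for names only, and 13506 kept the file's name. Tested probes, 26057 in all, had to be detected (well above background) on both LFD arrays or on both HFD arrays, and a gene was read at its brightest tested probe. HFD was compared with LFD by two-sided limma tests (lmFit, eBayes; limma 3.58.1 in R 4.3.3), with p adjusted by Benjamini-Hochberg across every tested probe, a threshold of 0.05 and few degrees of freedom (residual 2, prior 2.24). The fit was checked on simulated data. For a bound, the mean of the brighter diet was set against the dim probe, raised where needed to the weakest detected signal on that array. Members past the threshold and a fixed panel of members were named, and up to 6 called genes per list. A few genes were named after their values were seen: Wnt1, Wnt2, Wnt7a, Wnt7b, Wnt9b, Wnt10a, Wnt11, Fzd5, Fzd6, Fzd7, Fzd8, Fzd10, Axin1, Lef1 and Tcf7 among the members, and Edn1 and the uncalled genes of the other lists. Members and lists were chosen with earlier results of these data known. The number of arrays limits the precision. Alternatives changed the background method (normexp, offset 50), the scaling (quantile, median), the source (the value table), the filter on dim probes, the use of flagged spots, how probes are combined, the eBayes options (trend, robust) and the threshold (0.10), added the replicate number as a block, or left out each array in turn.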

Additional observations from a re-analysis of the deposited data

How the results depend on the processing

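The members lower in HFD numbered 5. They numbered 8 with quantile normalisation, where 1237 of all 17739 genes were lower and 963 higher. The members lower numbered 10 with eBayes trend and robust options, 6 with a filter of all 4 arrays and 11 at a threshold of 0.10. With no filter on dim probes they numbered 0, when 13 had an unadjusted p under 0.05 with limma. Members higher in HFD numbered 0 as reported above, 2 with normexp and at a threshold of 0.10, and 1 each with a filter of all 4 arrays, with the mean of probes (Ror2, through a probe dim in LFD) and with trend and robust options. The median of the members was -0.08 with normexp, -0.09 with no filter and -0.10 with a filter of all 4 arrays; with no filter the median of all genes shifted by 0.18. Among all genes 1597 were higher with normexp and 1592 with a filter of all 4 arrays, 1815 higher and 1816 lower with trend and robust options, 2254 and 2204 at a threshold of 0.10, and 0 and 0 with no filter, when 5608 had an unadjusted p under 0.05 with limma. The cause of these changes was not tested. With each array left out in turn, 2 to 465 genes were higher and 0 to 338 lower, 0 to 2 members were higher and 0 to 3 lower, and the median of the members was -0.36 to -0.18. A lone array was then assumed to vary like the other diet, and the tested probes were kept.

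Differences near 0 that changed sign were those of Ctnnb1 (-0.004 with quantile normalisation, -0.01 with the mean of probes), Sfrp1 (-0.01 with median scaling, -0.05 to 0.22 with each array left out), Wnt5b (-0.04 with median scaling, -0.01 with the mean of probes, -0.13 to 0.22 with each array left out, -0.02 without HFD replicate 2), Lrp5 (-0.20 to 0.05 with each array left out, 0.04 without HFD replicate 1) and Frzb (-0.09 to 1.04 with each array left out). Wnt6 was -0.87 with the mean of probes, a value with no measured size since it takes in a probe dim on both HFD arrays, and -0.02 to 0.23 with each array left out.

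Same-numbered samples did not deviate together across probes (r = -0.005, and probes are not independent). A value over all probes cannot show whether the replicate numbers mark a shared step that moved only some of them. With the replicate number as a block 144 genes were higher and 137 lower, and 0 members in either direction (7 higher and 17 lower at an unadjusted p under 0.05 with limma).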
